A study of Mus musculus with 22 samples.

Results

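The T-box transcription factors described here are 8 genes, Tbx1, Tbx2, Tbx3, Tbx4, Tbx5, Tbx15, Tbx18 and Tbx20, taken by symbol out of 16266 genes that have a value in all 4 RNA libraries. The libraries come from primary mouse embryonic fibroblasts (MEFs), cells grown out of the body of C57BL/6 embryos (E13.5). KO cells lack Lsh, the chromatin remodeller encoded by Hells that normal DNA methylation needs (Lsh-/-), and WT cells are Lsh+/+. Each genotype has 2 libraries, called KO1, KO2, WT1 and WT2 after genotype and replicate number, and the other 18 samples (chromatin and input) were not analysed here. The labels give neither the driver of the deletion nor the number of embryos behind a culture, and call the libraries biological replicates. P-values measure the spread between these 4 libraries. Beyond the words biological replicates, nothing says that the 2 libraries of a genotype came from separate cultures, so their spread may be technical.

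T-box factors share a DNA-binding domain named after T (Brachyury), the gene of mesoderm and notochord. In the embryo they set the identity of limbs, heart chambers and body wall, some as activators and some as repressors, and their dose matters for the outcome. Tbx2 and Tbx4 are neighbours on chromosome 11 and Tbx3 and Tbx5 are neighbours on chromosome 5, an arrangement inherited from an old tandem duplication.

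The libraries held 122 M (mega) to 177 M mapped reads. All 10 fibroblast markers were present in every library, with summed levels of 2889 to 3103 RPKM (reads per kilobase of exon and M mapped reads) in KO and 2903 to 2977 RPKM in WT. The sums hide differences between the replicate numbers. Of the 10, 6 were called higher and 3 lower in replicate 2 (additive limma fit, described below), beside 35.8% and 11.9% of all genes tested. Col3a1 was at 73.5 and 289 RPKM in KO1 and KO2, against 50.6 and 262 RPKM in WT1 and WT2. Thy1 was at 444 and 235 RPKM in KO1 and KO2, against 252 and 220 RPKM in WT1 and WT2. Hells was at 0.430 and 0.550 RPKM in KO1 and KO2, against 0.865 and 1.06 RPKM in WT1 and WT2. Its KO level was thus 0.497 and 0.521 of WT for replicates 1 and 2, and it was not called in either limma fit described below. Gapdh, which every cell uses, was listed at 0.298, 0.179, 0.160 and 0 RPKM in KO1, KO2, WT1 and WT2, so a value near 0 does not show that a gene is silent. The replicate 2 minus replicate 1 differences were alike in KO and WT: they had a correlation of 0.875 across genes, which are not independent replicates. The deposited rows also differ by number, so each difference by genotype is given within the numbers too.

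The promoter of Tbx4 is printed because the listed values of its 2 transcripts did not vary alike. Those of Tbx18 and Tbx20 are printed because these genes stand for a steady and a near-absent member. Each line holds the 250 bases before the start site, 5′ to 3′, from RefSeq (GRCm38.p6), with CG dinucleotides in capitals, the sites at which mammalian DNA is methylated. The intervals are chr11:85896515-85896764 (plus strand) for Tbx4, chr9:87731261-87731510 (minus strand) for Tbx18 and chr9:24774304-24774553 (minus strand) for Tbx20.
Tbx4: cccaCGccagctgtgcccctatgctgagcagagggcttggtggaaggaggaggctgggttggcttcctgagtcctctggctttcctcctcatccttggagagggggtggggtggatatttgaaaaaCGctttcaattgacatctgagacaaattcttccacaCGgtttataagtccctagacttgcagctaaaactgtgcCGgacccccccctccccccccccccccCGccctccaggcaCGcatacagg
Tbx18: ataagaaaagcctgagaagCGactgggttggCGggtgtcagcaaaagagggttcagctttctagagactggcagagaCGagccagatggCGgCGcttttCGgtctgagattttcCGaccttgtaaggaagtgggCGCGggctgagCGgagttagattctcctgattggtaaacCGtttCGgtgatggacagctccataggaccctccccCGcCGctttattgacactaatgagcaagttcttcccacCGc
Tbx20: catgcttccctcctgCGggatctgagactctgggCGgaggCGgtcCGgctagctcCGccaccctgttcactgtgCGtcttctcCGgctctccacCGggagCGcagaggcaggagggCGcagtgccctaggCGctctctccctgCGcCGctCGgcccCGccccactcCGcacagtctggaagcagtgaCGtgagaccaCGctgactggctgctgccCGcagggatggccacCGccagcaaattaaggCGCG

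The Tbx4 sequence holds 6 CG dinucleotides, as does the median of 32851 promoters, and the Tbx18 and Tbx20 sequences hold 15 and 22. Of all promoters, 50.4% have at least as many as Tbx4, 27.3% as many as Tbx18 and 14.8% as many as Tbx20. Promoters were found for 4 of the 8 genes, and those of Tbx2, Tbx3, Tbx5 and Tbx15 were not analysed here. The T-half site AGGTGTGA, searched on both strands, was in 0 of the 3 printed sequences and in 1.12% of all promoters. Its shorter core AGGTGT, which lies within it, was also in 0 of the 3, against 11.8% of all promoters. Tbx1, the fourth gene with a promoter, has 2 start sites in the table, and 1 of these promoters, with 10 CG dinucleotides, holds 1 AGGTGT match, while the other, with 17, holds 0. DNA methylation was not measured in the files used.

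Levels differed widely among the 8 genes. RPKM is per length, but the division of shared reads is not known, so the ranking is one of the listed values. Tbx15, a factor of skeletal and skin mesenchyme, was the highest, at 12.5 to 26.6 RPKM over the 4 libraries. Tbx3, a repressor needed in limb and mammary development, followed at 4.19 to 6.82 RPKM. The Tbx15 range lay above all others, and that of Tbx3 lay above Tbx18, the next by mean, but overlapped that of Tbx2, which reached 4.47 RPKM in WT2. Tbx18, known from the epicardium and the ureter, ranged from 1.59 to 2.75 RPKM, within the ranges of Tbx4 (0.158 to 3.57 RPKM) and Tbx2 (0.264 to 4.47 RPKM). Tbx5, the forelimb and heart factor, ranged from 0.271 to 1.72 RPKM and Tbx1, the pharyngeal arch factor, from 0.175 to 0.943 RPKM, so from Tbx18 down to Tbx1 each range overlapped the next. Tbx20, a heart factor, was the lowest at 0.0419 to 0.0786 RPKM, and its range lay below all others. The lowest and highest libraries differed 22.6-fold for Tbx4 and 17.0-fold for Tbx2, but 1.63-fold for Tbx3 and 1.73-fold for Tbx18.

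**Figure D1:**
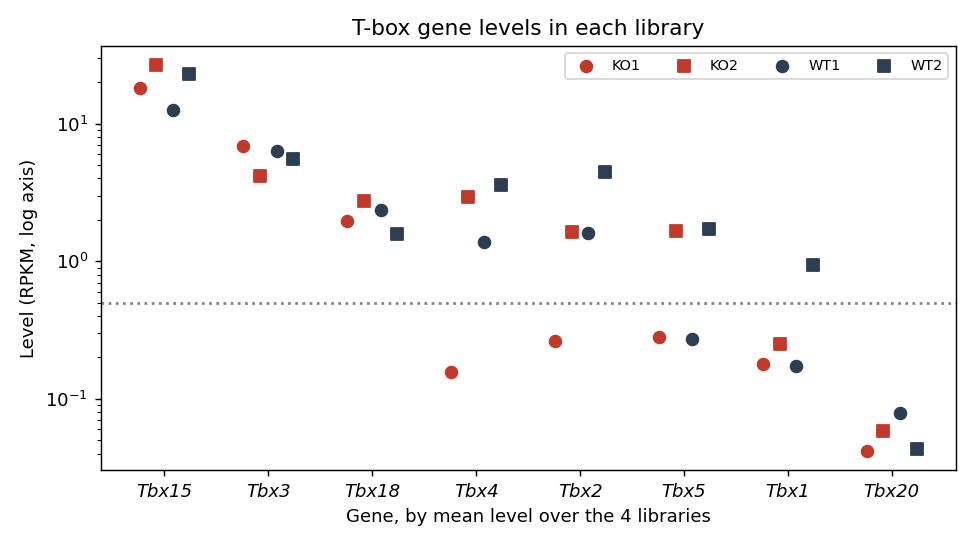
Level of each T-box gene (RPKM, log axis) in KO (red) and WT (dark) libraries, with circles for replicate 1, squares for replicate 2 and a dotted line at the filter of 0.5 RPKM. Tbx15 lies at 12.5 to 26.6 RPKM, Tbx20 below 0.08 RPKM, and KO1 is the lowest library for Tbx2 and Tbx4.

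For the 5 members with a single transcript row, the values correspond to whole reads. Tbx2 rested on 115 and 787 reads in KO1 and KO2 and on 754 and 2812 reads in WT1 and WT2, over a transcript of 3562 bases. Tbx5 rested on 135 and 883 reads in KO1 and KO2, against 141 and 1195 in WT1 and WT2. Tbx1 was the most thinly covered of the 5, with 39 and 61 reads in KO1 and KO2 and 41 and 296 in WT1 and WT2. Tbx18 had 1132 to 1754 reads per library and Tbx15 had 5905 to 14352.

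The first question is which of these factors differ between cells without Lsh and cells with it. Of the 8 members 6 could be tested, since Tbx1 and Tbx20 did not reach 0.5 RPKM in 2 libraries. Tests were run with limma (two-sided, Benjamini-Hochberg, adjusted p below 0.05), once on genotype alone and once on genotype and replicate number together, called the additive fit. Of the 6, Tbx2 fell in the additive fit and the other 5 were not called. In that fit 0.673% of the 11147 genes tested were called, of which the lower ones made up 0.296% and the higher ones 0.377% of the genes tested. On genotype alone limma called 0 members and 0% of all genes. "Fell" and "rose" below refer to the additive fit. The median log2 change of the 6 was -0.072, against -0.021 for all genes tested.

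Tbx2, a repressor that in mouse heart and limb keeps chamber and digit programmes off, was at 0.264 and 1.62 RPKM in KO1 and KO2, against 1.60 and 4.47 RPKM in WT1 and WT2. It was lower in KO within both numbers, yet the groups overlap, since KO2 lies just above WT1. In bulk RNA, fewer cells of a type and less RNA per cell cannot be told apart. The KO level was 0.165 of WT for replicate 1 (95% counting interval 0.134 to 0.201) and 0.363 for replicate 2 (0.335 to 0.393). These intervals are exact binomial ones, cover counting error only and compare libraries, not genotypes. On the log2(RPKM + 0.5) scale, which understates changes of low genes, Tbx2 fell by 1.34 (SE 0.18, limma adjusted p 0.00727 in the additive fit, 2 libraries per genotype). Its change was the 15th lowest of 11147. With genotype alone the SE was 0.72 and limma's adjusted p 1.00. The call ended in limma without the filter on low values (adjusted p 0.411) and where a gene was represented by its most abundant transcript (adjusted p 0.0876). Neither setting alters the values of Tbx2, which has a single transcript row, so its change had to stay at -1.34 in both. Without KO1 the change on genotype alone was -0.61, and without KO2 it was -2.08. The additive fit cannot be tested on 3 libraries.

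Tbx4, which with Pitx1 marks the hindlimb field, was at 0.158 and 2.95 RPKM in KO1 and KO2, against 1.39 and 3.57 RPKM in WT1 and WT2. KO1 was far below the other 3 libraries, and KO2 lay between WT1 and WT2. The KO level was 0.113 of WT for replicate 1 and 0.827 for replicate 2. The log2 change was -0.88 (SE 0.32), which missed the threshold in the additive limma fit (adjusted p 0.483). It was -1.40 with a pseudocount of 0.1, and 0.32, the opposite sign, on genotype alone without KO1. Tbx2 and Tbx4 were the 2 members lower in KO within both numbers, as were 31.4% of all genes tested.

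Tbx15 was at 18.2 and 26.6 RPKM in KO1 and KO2, against 12.5 and 22.8 RPKM in WT1 and WT2. It was the only member higher in KO within both numbers, with ratios of 1.45 and 1.17, and 22.5% of all genes were. Its log2 change of 0.37 (SE 0.17) missed the threshold in the additive limma fit (adjusted p 0.556), and the groups overlap.

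Tbx3, Tbx5 and Tbx18 lay on opposite sides in the 2 numbers. Tbx3 was at 6.82 and 4.19 RPKM in KO1 and KO2, against 6.34 and 5.50 RPKM in WT1 and WT2. Tbx5 was at 0.280 and 1.65 RPKM in KO1 and KO2, against 0.271 and 1.72 RPKM in WT1 and WT2, so each KO library lay next to the WT library of its number. Tbx18 was at 1.98 and 2.75 RPKM in KO1 and KO2, against 2.38 and 1.59 RPKM in WT1 and WT2. Their log2 changes were -0.13 (SE 0.18), -0.015 (SE 0.16) and 0.21 (SE 0.23), with limma adjusted p of 0.928, 0.993 and 0.894 in the additive fit. The groups of all 3 genes overlap.

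The 2 untested members lay on opposite sides too. Tbx1 was at 0.179 and 0.252 RPKM in KO1 and KO2, against 0.175 and 0.943 RPKM in WT1 and WT2, so WT2 stood above the other 3 libraries. The KO level of Tbx1 was 1.03 of WT for replicate 1 (counting interval 0.645 to 1.63) and 0.267 for replicate 2 (0.199 to 0.353). Tbx20 was at 0.0419 and 0.0582 RPKM in KO1 and KO2, against 0.0786 and 0.0431 RPKM in WT1 and WT2, in the row that all 4 libraries share.

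**Figure D2:**
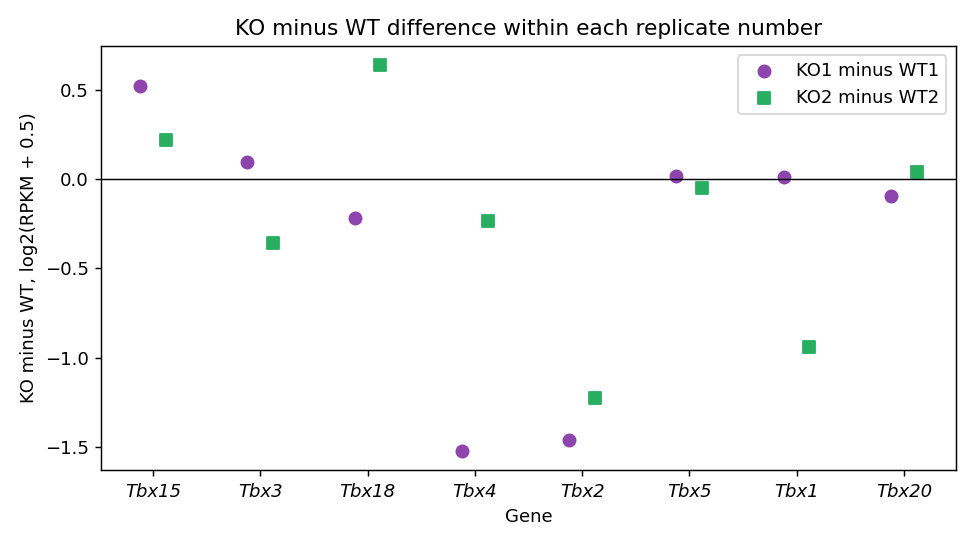
KO minus WT difference of each T-box gene on the log2(RPKM + 0.5) scale, within replicate 1 (circles) and replicate 2 (squares). Tbx2 lies at -1.46 and -1.23, Tbx4 at -1.52 and -0.24, and Tbx3, Tbx5, Tbx18, Tbx1 and Tbx20 have the numbers on opposite sides of 0.

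The linked pairs were compared within each library. Tbx2 starts at 85646117 and ends at 85655451 on chromosome 11 (mm9, plus strand), and Tbx4 starts 48114 bases after that end. The ratio of Tbx2 to Tbx4 in RPKM was 1.67 and 0.550 in KO1 and KO2, against 1.15 and 1.25 in WT1 and WT2. The WT ratios lay close together and the KO ratios lay on either side of them. On the log2(RPKM + 0.5) scale the Tbx2 minus Tbx4 difference averaged -0.24 in KO and 0.22 in WT, a KO minus WT value of -0.46 (exact permutation test, two-sided p 0.667). With 2 libraries per genotype that test cannot go below 0.333, so it cannot show that the pair changed unequally or alike.

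Tbx3 starts at 120120678 and ends at 120134611 on chromosome 5 (plus strand), and Tbx5 starts 150061 bases further on. The ratio of Tbx3 to Tbx5 was 24.4 and 2.55 in KO1 and KO2, against 23.4 and 3.21 in WT1 and WT2. It went with the replicate number and not with the genotype, as Tbx5 was several times higher in the replicate 2 libraries and Tbx3 was not. The log2 difference averaged 2.18 in KO and 2.29 in WT, a KO minus WT value of -0.11 (exact permutation test, two-sided p 1.00).

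Other genes that start within 500 kb of the pairs showed no call. Near Tbx2 and Tbx4 these were Bcas3, Brip1, Ints2 and Med13, all 4 tested, with log2 changes between -0.16 and 0.075 and a lowest limma adjusted p of 0.877 in the additive fit. Bcas3, whose row ends at 85639561, close before Tbx2, was at 2.18 and 2.83 RPKM in KO1 and KO2, against 2.15 and 3.13 RPKM in WT1 and WT2. Near Tbx3 and Tbx5 the only such gene was Rbm19, with a log2 change of -0.23 (limma adjusted p 0.810 in the additive fit). Around all 8 members there were 36 such genes, of which 23 were tested and 0 were called in either limma fit. No deposited row of another gene overlapped a member (0 rows).

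**Figure D3:**
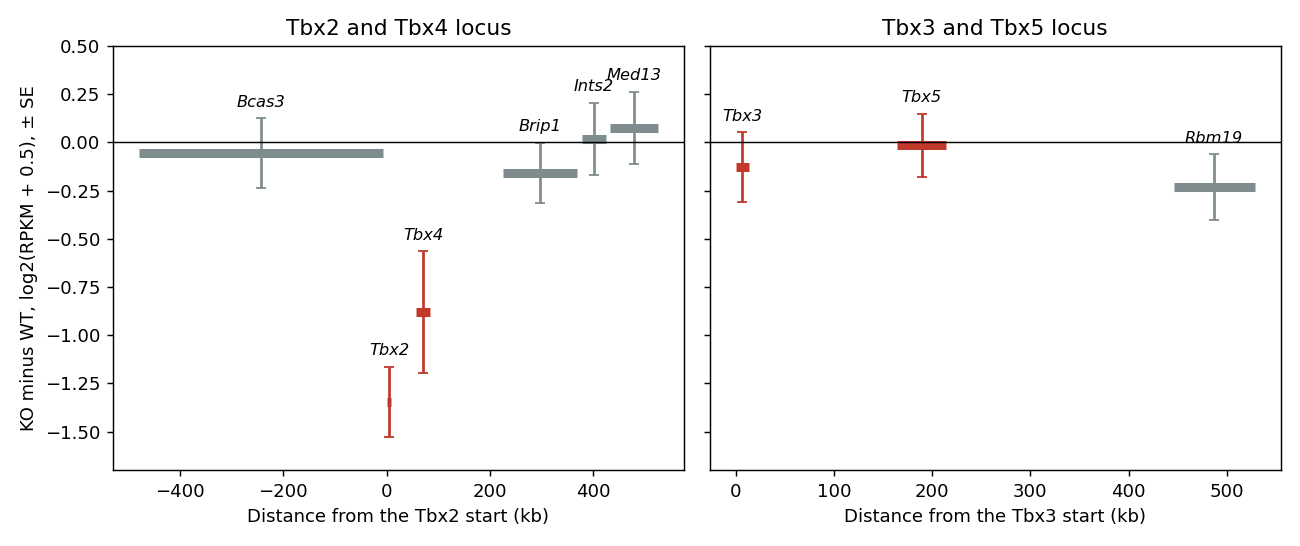
KO minus WT change (log2(RPKM + 0.5), additive limma fit, error bars ± SE) of the linked pairs (red) and of genes within 500 kb (grey), against distance from the start of Tbx2 or Tbx3 in kb, with bars as wide as the genes. Tbx2 (-1.34) and Tbx4 (-0.88) lie below their neighbours, which run from -0.16 to 0.075.

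The listed values of the Tbx4 transcripts did not vary alike. The authors' program gave NM_172798, the transcript with the downstream start, 0.0248 and 1.53 RPKM in KO1 and KO2, against 0.971 and 2.29 RPKM in WT1 and WT2. It gave NM_011536, the transcript with the upstream start, 0.133 and 1.42 RPKM in KO1 and KO2, against 0.420 and 1.28 RPKM in WT1 and WT2. NM_172798 thus made up 15.7% and 51.8% of the Tbx4 level in KO1 and KO2, against 69.8% and 64.2% in WT1 and WT2. These shares were not tested, and how often transcripts of other genes show lower shares in KO was not analysed. The share of KO1 rests on the lowest Tbx4 level, and the sources used here do not give how shared reads were divided. The Tbx4 start site of the printed promoter lies 64150 bases after the Tbx2 start in the RefSeq table, the same distance as the start of NM_172798 in the deposited rows. NM_011536 starts 57448 bases after Tbx2, and its promoter is not shown. For Tbx3, whose rows have the same start and end, NM_198052 was given 64.4% of the level in each of the 4 libraries. As the division of shared reads is not known, this even share does not show a steady use of the transcript.

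**Figure D4:**
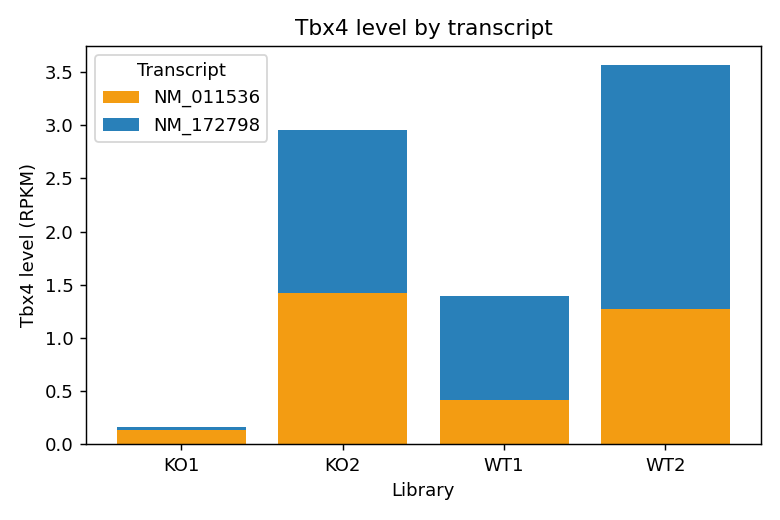
Tbx4 level (RPKM) in each library, stacked by transcript: NM_011536 (orange) and NM_172798 (blue). NM_172798 makes up 15.7% of the bar in KO1, 51.8% in KO2, 69.8% in WT1 and 64.2% in WT2.

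The T-box genes were also compared between the replicate numbers. In the additive limma fit 4 of the 6 were higher in the replicate 2 libraries and 0 were lower. Of all genes tested 47.8% were called between the numbers, 35.8% higher and 11.9% lower in replicate 2. That balance depends on the scaling: after scaling by median ratios 2340 genes were called higher (21.2%) and 2683 lower. Of the 6 tested members 4 were higher in replicate 2 within both genotypes, as were 57.8% of all genes tested. The untested Tbx1 was higher in replicate 2 within both genotypes too. The median log2 difference was 0.25 over all genes, and scaling by median ratios shifts it by 0.30, so member values are also given after that scaling. Tbx5 was at 1.65 and 1.72 RPKM in KO2 and WT2, against 0.280 and 0.271 RPKM in KO1 and WT1. That is a log2 difference of 1.49 (SE 0.16, limma adjusted p 4.78e-05), or 1.30 after scaling. The lowest library of number 2 was about 6-fold above the highest of number 1, with ratios of 5.88 within KO and 6.34 within WT. Tbx5 passed the filter through the replicate 2 libraries alone, so it had to differ between the numbers to be tested.

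Tbx2 was 1.36 higher in the replicate 2 libraries (limma adjusted p 0.000169) and 1.13 higher after scaling, and Tbx4 was 1.75 higher (adjusted p 0.00600) and 1.53 after scaling. The call of Tbx4 ended in limma with a pseudocount of 0.1 (adjusted p 0.0591). Without genotype as a term neither gene passed in limma, with adjusted p of 0.253 for Tbx2 and 0.0836 for Tbx4. Tbx15 was 0.69 higher (limma adjusted p 0.00668), which became 0.36 after scaling and missed the threshold (adjusted p 0.0944). Tbx3 was at 4.19 and 5.50 RPKM in KO2 and WT2, against 6.82 and 6.34 RPKM in KO1 and WT1. Its difference of -0.42 missed limma's threshold (adjusted p 0.0821) and became -0.72 after scaling (adjusted p 0.00443). Tbx18 differed by -0.033 (SE 0.23, limma adjusted p 0.918).

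**Figure D5:**
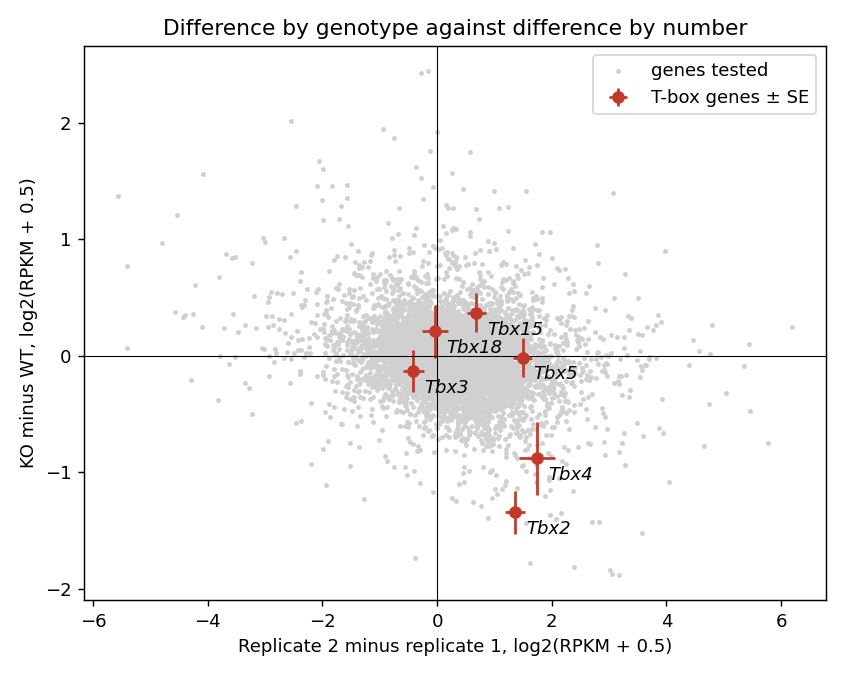
KO minus WT change against replicate 2 minus replicate 1 change (both log2(RPKM + 0.5), limma with genotype and number as terms) for the 6 tested T-box genes (red, error bars ± SE) and all 11147 genes tested (grey). Tbx2, Tbx4 and Tbx5 lie at 1.36 to 1.75 on the horizontal axis, and Tbx2 and Tbx4 lie at -1.34 and -0.88 on the vertical axis.

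The genes whose pattern over the 4 libraries was nearest to that of each member were found by Euclidean distance of log2(RPKM + 0.5) centred per gene. For Tbx2 they were Sfpi1, a transcription factor of blood cells, Cend1 and Krt7, a keratin of simple epithelia, at distances of 0.21 to 0.31. Sfpi1 was at 0.0796 and 1.17 RPKM in KO1 and KO2, against 0.908 and 2.83 RPKM in WT1 and WT2. For Tbx4 they were Hoxa11, Lilrb4 and Hoxd11 (0.23 to 0.26), and Hoxa11 and Hoxd11 are posterior limb patterning genes. Hoxa11 was at 0.913 and 5.97 RPKM in KO1 and KO2, against 3.41 and 6.67 RPKM in WT1 and WT2. For Tbx5 they were Hs3st5, Angpt2 and Tgfbr2, a receptor of TGF-beta (0.039 to 0.041), for Tbx3 Syvn1, Cbr3 and Zbtb42 (0.040 to 0.089), and for Tbx18 Eef1g, Aimp1 and Nat2 (0.068 to 0.069). For Tbx15 they were Map3k8, Hspa1a and a gene listed as 8-Sep, a symbol turned into a date in the files (0.038 to 0.072). Among the members, Tbx2 and Tbx4 were the nearest pair (0.80), followed by the unlinked Tbx3 and Tbx18 (0.83) and Tbx5 and Tbx15 (0.90). Tbx3 and Tbx5, the other linked pair, were 1.92 apart. With 4 libraries and 11147 genes close matches are easily found, so these names describe a pattern only.

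The rest of the T-box family was low. Of 7 other members with values in all libraries, 6 stayed below 0.5 RPKM in each: T, Eomes, Tbr1, Tbx6, Tbx10 and Tbx19. Tbx21 was listed at 0 in KO1 and WT1 and Tbx22 was not analysed here. Eomes, a mesoderm and T-cell factor, had the highest mean of these 6, though not the highest level in WT2, with 0.310 and 0.107 RPKM in KO1 and KO2, against 0.270 and 0.0555 RPKM in WT1 and WT2. Mga, a very large protein that pairs a T-box with a Max-binding domain, was at 3.87 and 4.16 RPKM in KO1 and KO2, against 3.68 and 3.24 RPKM in WT1 and WT2. Both KO libraries of Mga lay above both WT libraries, as in 6.1% of all genes, and its log2 change of 0.19 was not called (limma adjusted p 0.861 in the additive fit).

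Genes that act upstream were taken from a list of ligands, receptors and pathway factors. BMP signals induce Tbx2 and Tbx3 in many tissues, and of 16 tested members of the list 0 were called by genotype in either limma fit. Their median log2 change was -0.061, against -0.021 for all genes. Within both numbers 6 of the 16 had a lower and 4 a higher KO level, beside 31.4% and 22.5% of all genes tested. Bmp4, a BMP ligand, was at 1.15 and 27.8 RPKM in KO1 and KO2, against 5.10 and 30.0 RPKM in WT1 and WT2. Its log2 change was -0.94 (SE 0.50, limma adjusted p 0.778 in the additive fit). Bmpr1b, a BMP receptor, was at 10.8 and 2.93 RPKM in KO1 and KO2, against 7.09 and 1.36 RPKM in WT1 and WT2 (limma adjusted p 0.117 in the additive fit). Bmpr2, its type II partner, had an adjusted p of 0.527 and Fgfr2, an FGF receptor of limb buds, one of 0.406 in that limma fit. Shh, the ligand of the limb organiser, stayed at or below 0.0716 RPKM, and Fgf10, a limb outgrowth signal that Tbx5 activates, was at 1.62 and 2.14 RPKM in KO1 and KO2, against 1.68 and 2.58 RPKM in WT1 and WT2.

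Partner and upstream factors showed 0 calls by genotype among 13 tested, with a median log2 change of -0.21. The nearest to the threshold were forkhead factors that act upstream of Tbx1. Foxc2 was at 12.6 and 4.44 RPKM in KO1 and KO2, against 23.2 and 7.17 RPKM in WT1 and WT2, and Foxc1 at 4.16 and 12.3 RPKM in KO1 and KO2, against 7.18 and 18.8 RPKM in WT1 and WT2. Both were lower in KO within each number (log2 changes -0.75 and -0.66, limma adjusted p 0.0881 and 0.137 in the additive fit). Pdlim7, a LIM protein that binds Tbx4 and Tbx5, was at 23.4 and 21.2 RPKM in KO1 and KO2, against 31.8 and 29.7 RPKM in WT1 and WT2 (log2 change -0.46, limma adjusted p 0.357). Its KO libraries lay below both WT libraries, as in 7.32% of all genes.

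Genes known as repressed by Tbx2 or Tbx3 were not called (0 of 5 tested), with a median log2 change of 0.27. Cdkn2a, the cell cycle inhibitor locus that Tbx2 and Tbx3 repress, was at 107 and 33.9 RPKM in KO1 and KO2, against 69.1 and 28.2 RPKM in WT1 and WT2. Its log2 change was 0.45 (SE 0.17, limma adjusted p 0.421 in the additive fit). Cdkn1a, another cell cycle inhibitor they repress, was at 278 and 156 RPKM in KO1 and KO2, against 281 and 159 RPKM in WT1 and WT2. Ndrg1, repressed by Tbx2 in human breast cancer cells, was at 17.7 and 12.2 RPKM in KO1 and KO2, against 11.6 and 11.3 RPKM in WT1 and WT2 (log2 change 0.35, limma adjusted p 0.625). Gja1, the gap junction gene, was at 79.3 and 102.8 RPKM in KO1 and KO2, against 133 and 96.3 RPKM in WT1 and WT2 (adjusted p 0.778). Among genes known as activated by T-box factors, Fgf10 and Flt4, a lymphatic growth factor receptor, were not called either, with limma adjusted p of 0.925 and 0.895 in the additive fit.

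Limb and trunk position genes are of interest because Tbx4 and Tbx5 mark different levels of the body. Of 22 tested, 0 were called by genotype. In both numbers 13 had a lower and 4 a higher KO level, beside 31.4% and 22.5% of all genes, and the median log2 change was -0.30. Pitx1, the hindlimb factor that activates Tbx4, was at 0.904 and 7.15 RPKM in KO1 and KO2, against 4.30 and 11.4 RPKM in WT1 and WT2 (log2 change -1.20, SE 0.28, limma adjusted p 0.167 in the additive fit). KO1 was lowest and WT2 highest, the same order of libraries as for Tbx4. Hoxa5 and Hoxa4, of the Hox paralogue groups that regulate Tbx5 in the mouse forelimb, were lower in both KO libraries than in both WT libraries. That held for 7.32% of all genes tested. Hoxb4, of the same paralogue groups, went the other way, at 4.03 and 4.53 RPKM in KO1 and KO2, against 3.51 and 3.69 RPKM in WT1 and WT2. For Hoxb5, Hoxc4 and Hoxc5 the KO and WT values overlap. Hoxa5 was at 5.01 and 8.39 RPKM in KO1 and KO2, against 11.03 and 13.3 RPKM in WT1 and WT2 (limma adjusted p 0.0661), and Hoxa4 had an adjusted p of 0.178.

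Markers of other cell types differed between the libraries, and their sums did not follow a common order. Blood and macrophage markers (11 of 12 present) summed to 4.74 and 58.3 RPKM in KO1 and KO2, against 29.4 and 134 RPKM in WT1 and WT2, and 4 of 10 tested fell (C1qc, Laptm5, Fcer1g and Cd14), beside 0.296% of all genes tested. Epicardium and mesothelium markers (8 of 8 present) summed to 7.23 and 22.6 RPKM in KO1 and KO2, against 18.3 and 36.1 RPKM in WT1 and WT2, and 1 of 7 tested fell (0.296% of all genes), the keratin gene Krt19, with 3.56 and 2.70 RPKM in KO1 and KO2, against 13.4 and 9.78 RPKM in WT1 and WT2. Wt1, a mesothelial factor, was at 0.0792 and 3.68 RPKM in KO1 and KO2, against 0.666 and 3.05 RPKM in WT1 and WT2. Tcf21 was at 0 and 0.717 RPKM in KO1 and KO2, against 0.0308 and 0.327 RPKM in WT1 and WT2. Both genes were thus highest in KO2, not in WT2. The blood and mesothelium sums were each lowest in KO1 and highest in WT2, as the levels of Tbx2 and Tbx4 were. No other marker list had both its lowest sum in KO1 and its highest in WT2, but the order was not particular to these lists. The limb and trunk position genes summed to 145 and 254 RPKM in KO1 and KO2, against 162 and 276 RPKM in WT1 and WT2. Genes known as activated by T-box factors had that order too, and the remaining gene lists did not. Col2a1, a cartilage marker, was at 0.714 and 2.63 RPKM in KO1 and KO2, against 3.92 and 5.42 RPKM in WT1 and WT2, while Sox9 was highest in KO1. The share of all genes with that order was not analysed. The part of the blood and mesothelium markers in the Tbx2 and Tbx4 values was not tested.

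Heart muscle markers were near 0 beside the heart factors Tbx5 and Tbx20. Of 9 present, 7 stayed below 0.5 RPKM in every library, Myh6 was listed at 0 in KO1 and WT1, and the list summed to 15.6 and 14.0 RPKM in KO1 and KO2, against 21.3 and 12.5 RPKM in WT1 and WT2, mostly from Actc1. Tnnt2, the cardiac troponin T gene, had 0.850 and 1.15 RPKM in KO1 and KO2, against 0.302 and 0.372 RPKM in WT1 and WT2 (log2 change 0.83, SE 0.16). It passed the filter through the KO libraries alone, so it had to be higher in KO to be tested, and its limma adjusted p of 0.0487 in the additive fit is no support for a difference. Epithelial markers (8 of 8 present) summed to 4.27 and 2.46 RPKM in KO1 and KO2, against 4.23 and 6.48 RPKM in WT1 and WT2, and endothelial ones (7 of 7) to 0.611 and 2.38 RPKM in KO1 and KO2, against 1.63 and 1.89 RPKM in WT1 and WT2. Cartilage markers (7 of 7) summed to 19.8 and 9.50 RPKM in KO1 and KO2, against 14.2 and 15.0 RPKM in WT1 and WT2, and 1 of 4 tested fell (0.296% of all genes), the collagen gene Col2a1. Skeletal muscle markers (6 of 7 present) summed to 2.46 and 40.0 RPKM in KO1 and KO2, against 23.8 and 32.2 RPKM in WT1 and WT2, and neuronal markers (3 of 6 present, 1 of 2 tested rose, Tubb3, beside 0.377% of all genes) to 46.1 and 32.5 RPKM in KO1 and KO2, against 31.1 and 15.7 RPKM in WT1 and WT2. The part of these markers in the T-box values was not tested.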

How the data were processed

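RNA of 2 KO and 2 WT MEF samples was poly-A selected after removal of ribosomal RNA, per the labels' protocols. The authors deposited RPKM values per RefSeq transcript in one file per library. The submitters' processing notes name Partek and the build mm9, while Cufflinks is named in the readme deposited with the files. The sources used here give neither the aligner nor the division of shared reads. Of the rows, 95.3% matched RefSeq accessions. The replicate 1 files hold 26886 rows and the replicate 2 files 21136; rows of replicate 1 alone were not used in tests.

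Transcripts were summed per symbol. Genes with at least 0.5 RPKM in 2 libraries (11147) were tested on log2(RPKM + 0.5) with limma 3.58.1 in R 4.3.3 (lmFit, eBayes with trend and robust variance, two-sided, Benjamini-Hochberg, threshold 0.05). The planned design has genotype only, and the fit with the replicate number leaves 1 residual degree of freedom per gene (prior degrees of freedom 9.70). Linked pairs were compared by exact permutation over libraries.

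Library depth came from single-exon olfactory receptor loci, where RPKM times length steps by 1 read (at least 95.7% whole within 0.02 of a read). For members with 1 row, the transcript length was the smallest from 300 to 9000 bases that gave whole reads within 0.02 in all 4 libraries. No other length that is not its multiple came closer than 0.032 of a read; if all 4 counts shared a factor, they would be understated by it.

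Named genes were the 8 members, all called genes of each list or else the 3 with the smallest p, the 3 genes nearest to each member, and neighbours within 500 kb. In the marker lists, most of those not called are given by sums. Shh, Bmp4, Cdkn1a, Wt1, Tcf21, Sox9, Myh6, Actc1, Hoxb4, Hoxb5, Hoxc4 and Hoxc5 fall outside that rule and were chosen after their values were seen. One listed gene is not reported here. The members and lists were chosen with earlier results of these data known. Alternatives were other pseudocounts, filters, scaling, transcript choice, the number as a term and each library left out; each Tbx4 transcript alone was added after seeing the data.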

Additional observations from a re-analysis of the deposited data

How the results depend on the processing

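The replicate block (the additive fit) called 1 member (Tbx2) and 75 genes in all, where genotype alone called 0 and 0 in limma with 41 genes at an unadjusted p below 0.05. Among members 0 had an unadjusted p below 0.05 with genotype alone, against 2 with the block, where 1014 of all 11147 genes tested had one. No label ties the numbers to a shared litter or day. The correlation of 0.875 across genes between the replicate differences of KO and WT is a hint from the data, not the design. With the block, 1 member was called with pseudocounts of 0.1 and 1, a filter of 1 RPKM and median-ratio scaling, in which 40, 59, 70 and 140 genes passed. With no filter 0 members and 0 genes passed, and with the highest transcript 0 members and 3 genes. The cause was not tested. Between the numbers 4 members were called, and 2 with the number as the only term.

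Leaving out 1 library in the fit with genotype alone, in which the difference between the numbers enters, called 0 to 0 members and 0 to 0 genes. The change ran from -2.08 to -0.61 for Tbx2, from -2.08 to 0.32 for Tbx4 (0.32 without KO1), from -0.45 to 0.19 for Tbx3 (0.19 without KO2), from -0.78 to 0.75 for Tbx5 (0.72 without KO1, 0.75 without WT2), from -0.051 to 0.79 for Tbx15 (-0.051 without WT1) and from -0.019 to 0.44 for Tbx18 (-0.019 without WT2). The Tbx2 minus Tbx4 value ran from -0.92 to -0.0057, and the Tbx3 minus Tbx5 value from -1.16 to 0.94. As both genotypes have the same replicate numbers, the replicate block had to give both pairs the same values as the comparison without it (-0.46 and -0.11). With Tbx4 transcript NM_011536 alone the first was -1.13, and with NM_172798 alone -0.37. In the other pair settings it kept its sign, from -0.44 to -0.37. Tbx1 and Tbx20 were tested only without the filter, where 0 members passed by genotype.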

Other observations

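Steroid dehydrogenase genes near Tbx15, chosen after their values were seen, were above 1 RPKM in a single KO library each. Hsd3b6 was at 2.99 and 0.0245 RPKM in KO1 and KO2, against 0.101 RPKM in WT1 and 0 in WT2. Hsd3b1 was at 0.229 and 1.63 RPKM in KO1 and KO2, against 0.0490 and 0.0153 RPKM in WT1 and WT2. Both start within 500 kb of Tbx15, did not pass the filter on low values and were not tested, and as close copies within 1 family they may share reads. Wars2, which lies between them and Tbx15, was at 1.74 and 3.67 RPKM in KO1 and KO2, against 1.64 and 2.90 RPKM in WT1 and WT2 (limma adjusted p 0.880 in the additive fit).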
